A study of Mus musculus with 18 samples.

Results

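Astrocytes are the glial cells that clear glutamate from the synapse, buffer ions and water, and secrete lipoproteins and matrix proteins, and 38 genes widely used to mark them were followed through a polysome experiment on mouse brain slices. The genes were chosen by symbol, and all 38 were among the 13973 genes of the deposited count table. By where their proteins end up they fall into 17 membrane proteins (transporters, channels, junction proteins and receptors, and the endoplasmic reticulum enzyme Dio2), 7 secreted proteins and 14 cytosolic or nuclear proteins.

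Slices of hippocampus and cortex came from male C57BL/6N mice aged 28 to 35 days, either wild-type (WT) or knockout for Fmr1 (KO), the gene of the RNA-binding protein FMRP that is lost in fragile X syndrome. The slices spent 30 min with DMSO as vehicle or with 20 µM homoharringtonine (HHT), a drug that stops ribosomes from leaving the start of a coding sequence, so that ribosomes already elongating finish and fall off. Each lysate gave an input library and libraries of its medium and heavy polysome pools. Genotype, treatment and fraction divide the 18 libraries into 12 groups, of which the 6 HHT groups have 2 replicates apiece and the 6 vehicle groups 1 library. A replicate pooled 10 slices of 400 µm from 2 to 3 mice. The tissue was homogenised without detergent and cleared at 2000 g and 10000 g before 1% NP-40 was added, and RNA in the pellets was not analysed here. All values come from whole slices, in which fewer astrocytes and less RNA per astrocyte cannot be told apart.

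An mRNA for a membrane or secreted protein is translated on the endoplasmic reticulum, to which the ribosome is brought by a hydrophobic stretch of the growing protein, either a leading signal peptide or a membrane-spanning segment. An mRNA for a cytosolic or nuclear protein is usually translated on free ribosomes. The number of ribosomes that an mRNA can carry grows with its coding length, so in a sucrose gradient a short coding sequence rarely reaches the heavy polysomes.

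The coding starts of 8 of the genes are shown because the changes described below followed this division. Each line gives the first 40 codons (120 bases) of the GENCODE M21 transcript on GRCm38, the assembly called mm10. Capitals mark the most hydrophobic run of 10 codons among the first 35, where its mean Kyte-Doolittle hydropathy reached 2.0. The genes for Clu (chromosome 14, 65968483 to 65981547), Cst3 (chromosome 2, 148871722 to 148875692), Sparcl1 (chromosome 5, 104079111 to 104113733) and Htra1 (chromosome 7, 130936111 to 130985660) encode secreted proteins. Mt1 (chromosome 8, 94179082 to 94180327), Mt3 (chromosome 8, 94152607 to 94154146), S100b (chromosome 10, 76253853 to 76261159) and Fabp7 (chromosome 10, 57784881 to 57788450) encode small cytosolic proteins.
Clu: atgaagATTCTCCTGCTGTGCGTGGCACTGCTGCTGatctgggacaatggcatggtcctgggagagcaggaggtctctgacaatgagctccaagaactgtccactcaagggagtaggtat
Cst3: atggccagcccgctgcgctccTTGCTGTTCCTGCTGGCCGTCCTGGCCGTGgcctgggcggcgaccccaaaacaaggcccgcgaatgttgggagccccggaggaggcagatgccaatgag
Sparcl1: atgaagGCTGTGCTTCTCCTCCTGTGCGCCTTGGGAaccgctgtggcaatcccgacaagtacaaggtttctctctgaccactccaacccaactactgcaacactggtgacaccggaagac
Htra1: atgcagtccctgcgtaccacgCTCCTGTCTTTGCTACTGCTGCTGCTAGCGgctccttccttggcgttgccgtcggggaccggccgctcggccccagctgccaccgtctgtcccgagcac
Mt1: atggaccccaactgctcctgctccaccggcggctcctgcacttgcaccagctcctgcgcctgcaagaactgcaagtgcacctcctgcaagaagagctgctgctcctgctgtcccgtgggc
Mt3: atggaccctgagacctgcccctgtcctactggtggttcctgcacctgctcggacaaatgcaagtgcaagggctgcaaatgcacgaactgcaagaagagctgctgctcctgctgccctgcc
S100b: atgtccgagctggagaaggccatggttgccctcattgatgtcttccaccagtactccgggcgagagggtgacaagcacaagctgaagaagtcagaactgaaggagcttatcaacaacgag
Fabp7: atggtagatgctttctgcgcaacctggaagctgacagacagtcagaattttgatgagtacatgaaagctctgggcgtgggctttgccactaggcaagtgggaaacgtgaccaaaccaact
In the 4 secreted proteins the run began at codon 3 or 8 and reached a mean hydropathy of 2.89 to 3.58. No run reached 2.0 in the 4 cytosolic proteins, whose best means were 0.21 to 1.83. Over all 38 genes, such a leading run or a window of 19 residues with a mean of at least 1.6 was present in 24 of 24 membrane and secreted proteins and in 0 of 14 cytosolic or nuclear proteins. The count of 0 depends on the cutoff, since the best windows of 19 residues in Cbs and Ndrg2 had means of 1.59 and 1.53. Of the 13038 genes of the table that matched a coding sequence, 39.7% had such a run or window.

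Library totals ran from 6226237 to 13834652 estimated counts. The 38 genes took 0.411 to 0.782% of the counts of a library, and none was at 0 in any library. Fmr1 was at 5.42 to 8.04 CPM in KO vehicle against 24.9 to 28.9 CPM in WT vehicle libraries, and no KO library reached the level of any WT library. Between the 2 HHT lysates of a genotype, 26 of the 38 genes moved in input in the same direction in WT and KO and 12 in opposite directions. Slc1a2, picked after its values were seen, held 1528 and 881 CPM in WT replicates 1 and 2, and 1498 and 855 CPM in KO. The name of the deposited tables mentions 2 batches, without saying which libraries form them or whether values were adjusted, and vehicle has no second replicate, so such a batch and the treatment cannot be fully told apart.

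HHT against vehicle asks which astrocyte mRNAs held a different share of each fraction once initiation had been blocked. Levels are in CPM, counts scaled by TMM to a common library size. With 200 ng of RNA in every library, a level states what part of the RNA in that fraction the gene made up. Log2 fold changes ± SE, averaged over both genotypes, are those of edgeR's quasi-likelihood test. A gene rose or fell where its Benjamini-Hochberg adjusted p over all 13973 genes was under 0.05. In input, 18 of 38 genes rose and 0 fell, where 12.2% of all genes rose and 0.215% fell. In medium polysomes 23 rose and 9 fell, against 25.4% and 21.5% of all genes. In heavy polysomes 21 rose and 7 fell, against 27.1% and 24.7% of all genes. The median log2 fold change of the 38 genes was 0.71 in input, 0.81 in medium and 0.53 in heavy, where the median over all genes was 0.00, 0.03 and 0.06.

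The direction followed the location of the protein. Of the 17 membrane protein genes 11, 14 and 16 rose in input, medium and heavy, and of the 7 secreted protein genes 7, 6 and 5 rose, with none of either class falling in any fraction. Of the 14 cytosolic or nuclear protein genes 0 changed in input, 3 rose and 9 fell in medium, and 0 rose and 7 fell in heavy. In all 3 fractions 14 genes rose, 10 of them for membrane and 4 for secreted proteins, as did 9.5% of all genes. Of these 14, 9 lost their heavy call in at least 1 of 13 alternative fits (Slc1a3, Slc7a10, Slc39a12, Aqp4, Gja1, Mlc1, Clu, Agt and Htra1), and Slc39a12 also lost its input call. Summed over the class, the cytosolic or nuclear genes held 2975 and 3443 CPM in the 2 vehicle heavy libraries and 1108 to 1233 CPM in the 4 HHT heavy libraries. The membrane protein genes held 1186 and 1543 CPM in vehicle heavy and 3053 to 4267 CPM in HHT heavy. These 2 sums moved in opposite directions in the heavy pool, with no overlap between treatments in either. Single genes weighed much in them. Glul held 1717 and 2011 CPM in vehicle heavy and 463 to 495 CPM in HHT heavy. Slc1a2 held 590 and 799 CPM in vehicle heavy and 1888 to 2761 CPM in HHT heavy. Of the cytosolic or nuclear genes, the 7 under 750 coding bases, a division made after these data were seen, had 0 calls in heavy. Their median change there was -0.07.

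**Figure D1:**
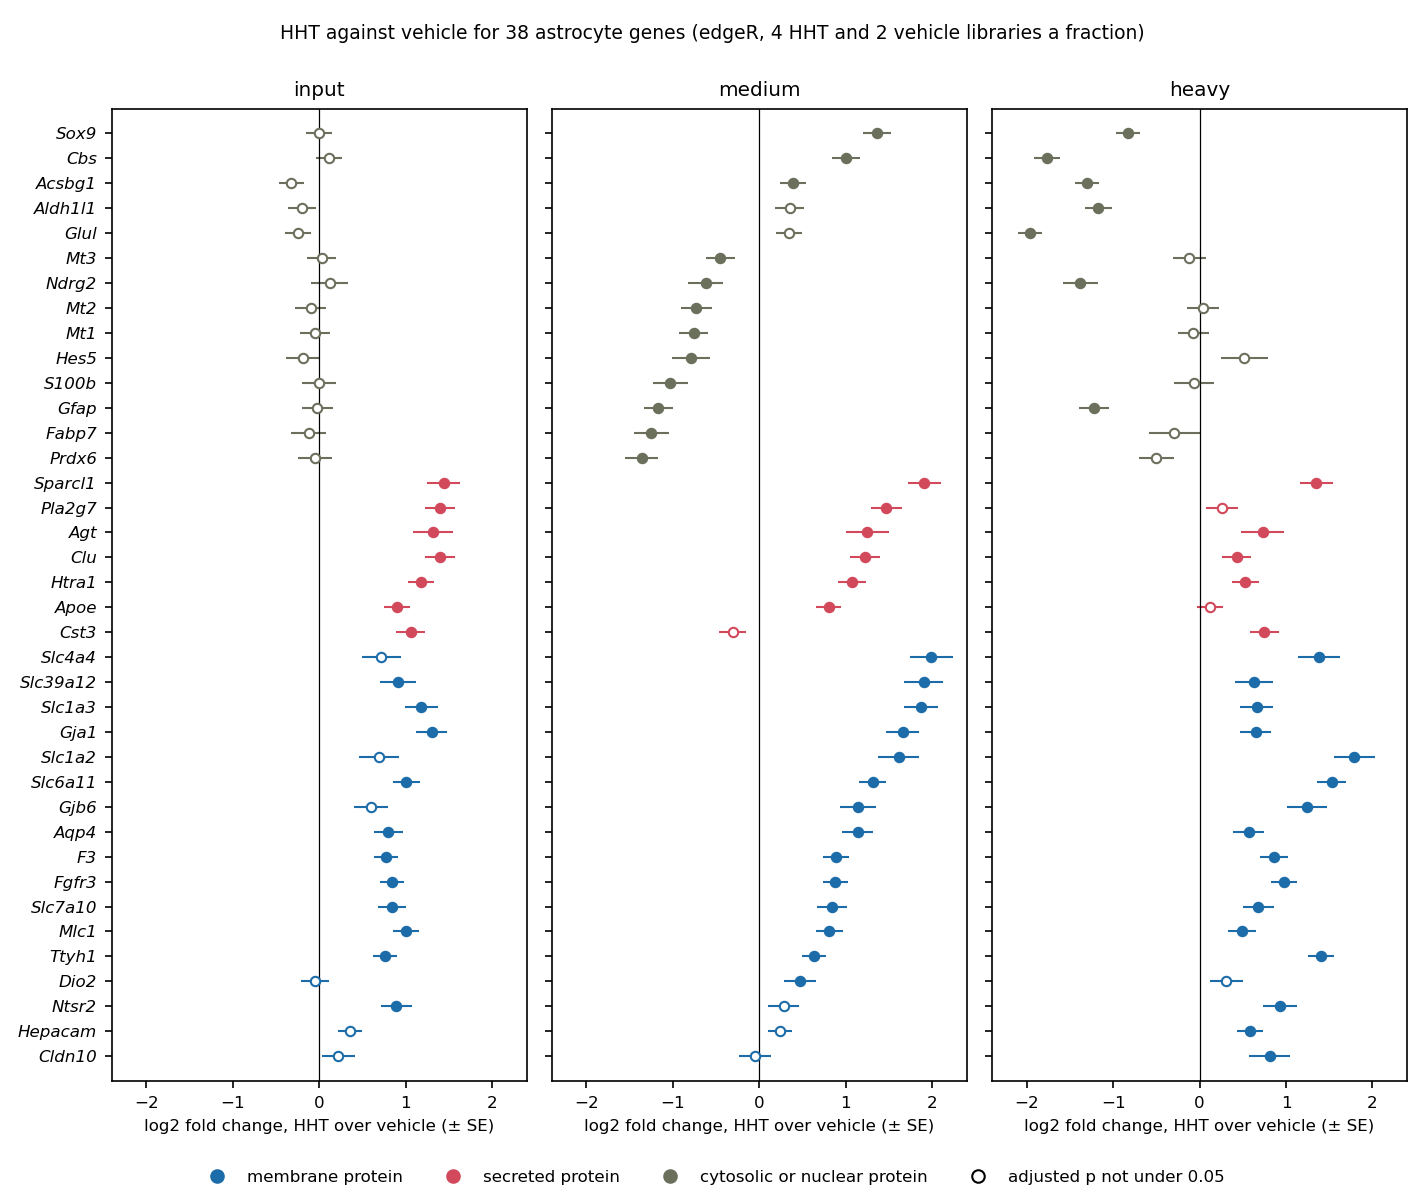
Log2 fold change of HHT over vehicle (± SE) for each of the 38 genes in input, medium and heavy, from 4 HHT and 2 vehicle libraries a fraction. Points are coloured by protein location and open where the adjusted p was not under 0.05. Membrane and secreted genes lie mostly to the right of 0 in all 3 panels, while the 14 cytosolic or nuclear genes stand near 0 in input and reach -1.36 in medium and -1.96 in heavy.

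The glutamate transporters were among the genes that rose most. Below, vehicle values are given in the order WT, KO, and HHT values in the order WT 1, WT 2, KO 1, KO 2. Slc1a2 (chromosome 2, 102658659 to 102790784), which takes up most synaptic glutamate in the forebrain, held 589.9 and 799 CPM in vehicle heavy polysomes and 2281, 1888, 2761 and 2658 CPM under HHT. Every HHT library was above both vehicle libraries, and the change was 1.79 ± 0.24 (edgeR adjusted p = 4.2e-05). In medium polysomes Slc1a2 went from 493 and 829 CPM to 2175, 1831, 1942 and 1859.6 CPM, a change of 1.61 ± 0.24 (edgeR adjusted p = 0.000217). In input it held 642 and 843 CPM in vehicle and 1528, 881, 1498 and 855 CPM under HHT, where replicates 2 lay only just above the KO vehicle library and the change of 0.69 ± 0.23 (edgeR adjusted p = 0.0662) did not pass, although DESeq2 called it higher. Slc1a3 (chromosome 15, 8634124 to 8710764), the other astrocyte glutamate transporter, had the opposite balance of fractions. It held 84.9 and 136 CPM in vehicle medium and 395, 326, 400.1 and 454 CPM in HHT medium, a rise of 1.87 ± 0.20 (edgeR adjusted p = 9.48e-05). In heavy it went from 104 and 126 to 203, 128, 224 and 170.0 CPM, where WT replicate 2 lay next to the KO vehicle library and the rise was 0.66 ± 0.19 (edgeR adjusted p = 0.00985).

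Other transporters rose with them. Slc4a4 (chromosome 5, 88886818 to 89239653), a sodium bicarbonate cotransporter, held 34.1 and 40.1 CPM in vehicle medium and 168, 134, 151 and 134 CPM in HHT medium. At 1.99 ± 0.25 (edgeR adjusted p = 0.000113) this was the largest rise of the 38 genes in medium. Slc6a11 (chromosome 6, 114131241 to 114249952), a GABA transporter, held 50.9 and 66.5 CPM in vehicle heavy and 173, 142, 175 and 184 CPM in HHT heavy, a rise of 1.53 ± 0.17 (edgeR adjusted p = 1.14e-05). It rose in input and medium as well, by 1.01 ± 0.16 and 1.31 ± 0.16. Slc39a12, a zinc transporter, rose by 1.90 ± 0.23 in medium, from 5.68 and 14 CPM to 32.8, 39.3, 31.8 and 29.2 CPM, and by 0.91 ± 0.21 in input and 0.63 ± 0.22 in heavy. Its WT vehicle medium library was well below the KO one. Slc7a10, a carrier of small neutral amino acids, rose by 0.84, 0.84 and 0.68 in input, medium and heavy.

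The genes of the astrocyte network and endfeet followed. Gja1 (chromosome 10, 56377330 to 56402513), the main connexin of astrocyte gap junctions, held 52.8 and 71.3 CPM in vehicle input and 153, 171, 153 and 129 CPM in HHT input. The groups stood well apart, at 1.30 ± 0.18 (edgeR adjusted p = 0.0011), the largest rise among the membrane genes in input. Its rise was 1.66 ± 0.19 in medium and 0.65 ± 0.18 in heavy. Gjb6, another connexin of astrocytes, held 7.75 and 10.7 CPM in vehicle heavy and 24, 17.9, 28.5 and 16.1 CPM in HHT heavy, a rise of 1.24 ± 0.23 (edgeR adjusted p = 0.000532), and did not pass in input at 0.60 ± 0.20 (edgeR adjusted p = 0.074). Aqp4, the water channel of perivascular endfeet, rose by 0.80, 1.14 and 0.57 in input, medium and heavy. Mlc1 and Hepacam encode partner proteins of the same endfeet, both mutated in a human leukodystrophy with cysts. Mlc1 rose in all 3 fractions, by 1.00, 0.81 and 0.49, with the heavy call lost in 3 of 13 alternative fits, whereas Hepacam rose only in heavy, by 0.58 ± 0.15 (edgeR adjusted p = 0.00519), and stood at 0.36 in input and 0.24 in medium.

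**Figure D2:**
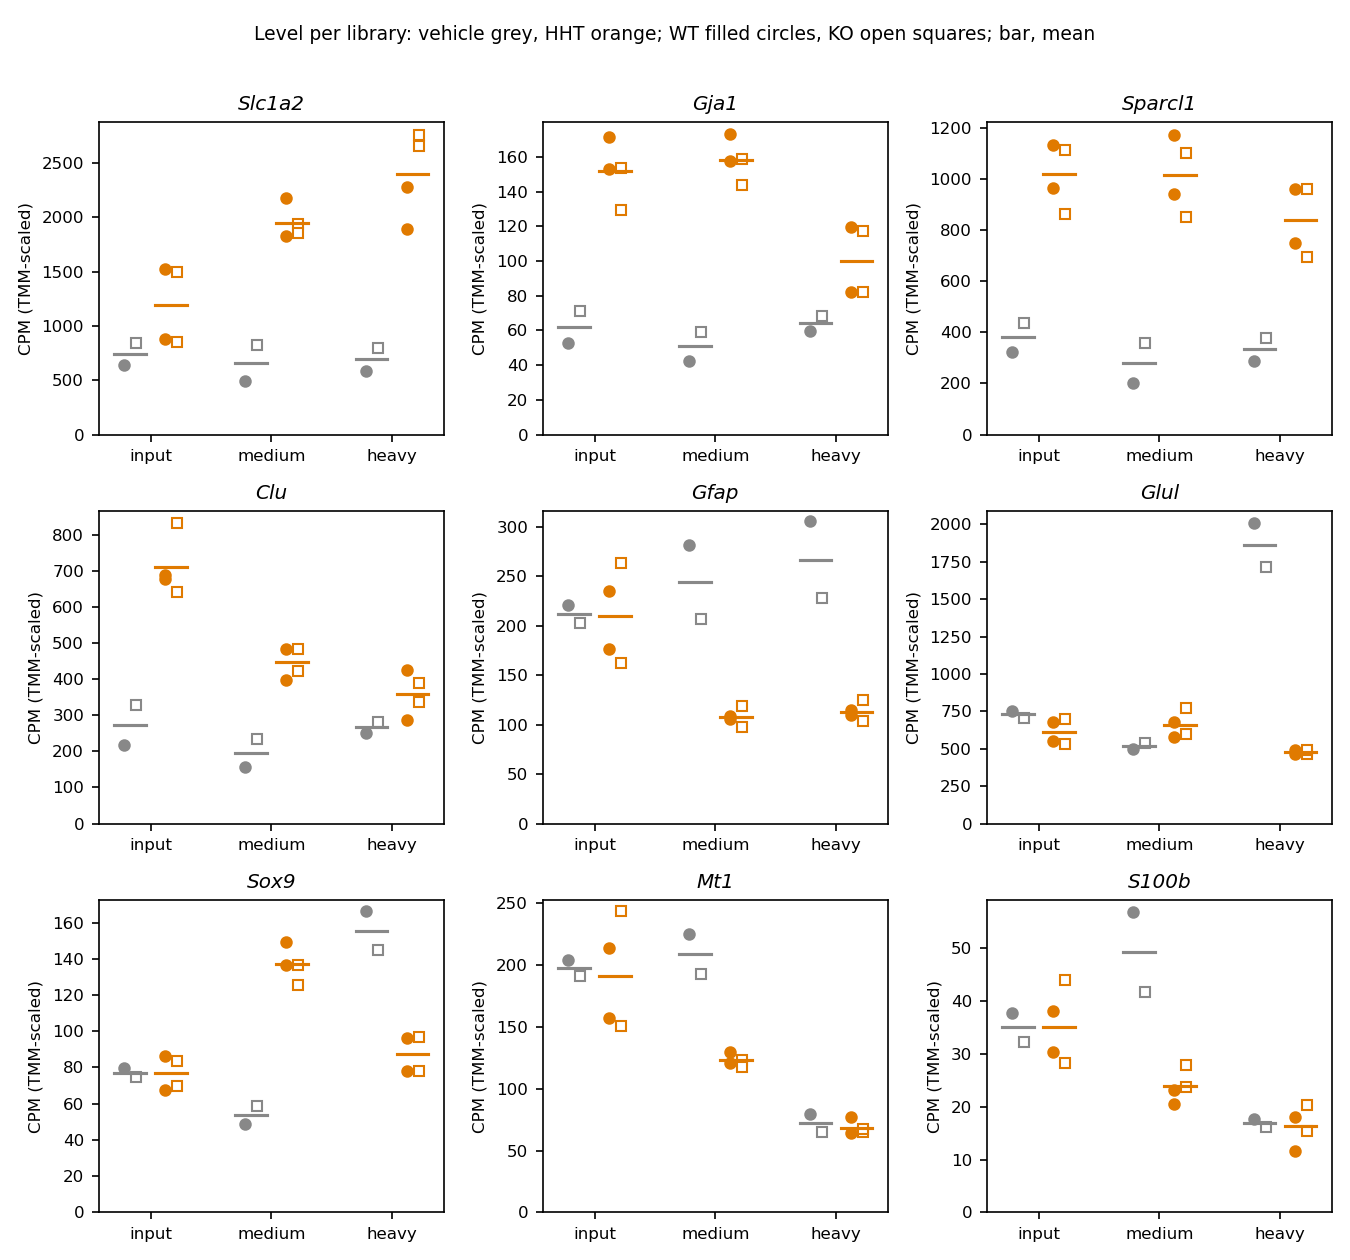
CPM of 9 astrocyte genes in every library, by fraction. Vehicle is grey and HHT orange, WT filled circles and KO open squares, and the bar is the mean of the libraries of a treatment. Slc1a2, Gja1 and Sparcl1 are higher under HHT in all 4 libraries of every fraction, Gfap falls in medium and heavy, Glul in heavy, and Mt1 and S100b in medium, while Sox9 rises in medium and falls in heavy.

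Among the remaining membrane genes, Ttyh1 (chromosome 7, 4119408 to 4136708), a tweety family membrane protein, had the smallest adjusted p of the class in heavy. It held 117 and 157 CPM in vehicle and 367, 328, 384 and 362 CPM under HHT there, a rise of 1.41 ± 0.15 (edgeR adjusted p = 8.42e-06). In input and medium it rose by 0.76 and 0.63. The growth factor receptor Fgfr3 (chromosome 5, 33721674 to 33737068) rose evenly, by 0.84 ± 0.14, 0.88 ± 0.14 and 0.98 ± 0.15 in input, medium and heavy. So did F3, the tissue factor of blood coagulation, at 0.77, 0.89 and 0.86. Ntsr2, a neurotensin receptor, rose by 0.89 in input and 0.93 in heavy but stood at 0.28 ± 0.18 (edgeR adjusted p = 0.224) in medium, where its libraries overlapped. The claudin Cldn10, the shortest coding sequence of the class at 693 bases, rose only in heavy, by 0.81 ± 0.24 (edgeR adjusted p = 0.0108). Dio2, the deiodinase that activates thyroid hormone, moved little. It held 17 and 17.5 CPM in vehicle input and 16, 17.9, 18.1 and 14.7 CPM in HHT input, which overlapped, and its medium rise of 0.47 ± 0.18 (edgeR adjusted p = 0.0425) was lost in most alternative fits. Over the membrane class, the HHT libraries lay above both vehicle libraries in input for 15 of 17 genes, in medium for 15 and in heavy for 17, where 18.4%, 33.9% and 35.2% of all genes did.

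All 7 secreted protein genes rose in input, by 0.90 to 1.44. Sparcl1 encodes hevin, a matrix protein that promotes synapse formation, and held 324 and 436 CPM in vehicle input and 1133, 963, 1113 and 863 CPM in HHT input. Its HHT libraries were all above both vehicle libraries in every fraction, with changes of 1.44 ± 0.19 (edgeR adjusted p = 0.00109), 1.91 ± 0.19 (edgeR adjusted p = 9.48e-05) and 1.35 ± 0.19 (edgeR adjusted p = 5.32e-05) in input, medium and heavy. Clu, the extracellular chaperone clusterin, held 219 and 329 CPM in vehicle input and 678, 690.0, 643 and 832 CPM under HHT, a rise of 1.40 ± 0.17 (edgeR adjusted p = 0.00097). In heavy the same gene went from 251 and 283 to 426, 288, 389 and 337 CPM. There WT replicate 2 stood just above the KO vehicle library, and the rise of 0.43 ± 0.17 (edgeR adjusted p = 0.042) was lost in 5 of 13 alternative fits. Apoe (chromosome 7, 19696109 to 19699188), the main apolipoprotein of the brain, rose by 0.90 ± 0.15 in input and 0.80 ± 0.15 in medium. Its heavy libraries overlapped at 0.12 ± 0.15 (edgeR adjusted p = 0.557). Pla2g7, which hydrolyses platelet-activating factor, had the same pattern, with 1.40 ± 0.17 and 1.47 ± 0.18 against 0.26 ± 0.18 (edgeR adjusted p = 0.236) in heavy. Htra1 and Agt rose in all 3 fractions. The serine protease Htra1 rose by 1.18, 1.07 and 0.53, and angiotensinogen, Agt, by 1.32, 1.25 and 0.73. In heavy Agt held 9.41 and 12 CPM in vehicle and 21.7, 11.8, 19.1 and 18.5 CPM under HHT, where WT replicate 2 lay below the KO vehicle library. The heavy call was lost in 4 of 13 alternative fits for Agt and in 2 for Htra1.

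Cst3, which encodes the secreted protease inhibitor cystatin C, was the one secreted gene that did not rise in medium. At 420 coding bases it is also the shortest of the class. It held 156 and 201 CPM in vehicle input and 324, 396, 312 and 449 CPM in HHT input, a rise of 1.06 ± 0.17 (edgeR adjusted p = 0.00173). In medium the values were 173 and 172 CPM in vehicle and 151, 119, 149 and 139.8 CPM under HHT. All 4 HHT libraries were below both vehicle libraries, but the change of -0.31 ± 0.16 (edgeR adjusted p = 0.142) did not pass. In heavy Cst3 rose from 62 and 76.3 to 121, 98.2, 131 and 114 CPM, by 0.75 ± 0.17 (edgeR adjusted p = 0.00246). Its medium/input ratio was shifted by -1.37 ± 0.23 (edgeR adjusted p = 0.00418) under HHT.

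The 14 cytosolic or nuclear genes split by coding length in the polysome fractions. Length was divided at 750 bases after these data were seen, which leaves 7 genes on each side, and the split is given as a description. The 7 longer genes (Gfap, Aldh1l1, Glul, Ndrg2, Sox9, Cbs and Acsbg1) all fell in heavy, while in medium 3 rose, 2 fell and 2 did not pass. The 7 shorter ones (S100b, Mt1, Mt2, Mt3, Fabp7, Hes5 and Prdx6) all fell in medium. In heavy none of them passed the edgeR test, 1 (Prdx6) had an unadjusted p under 0.05, and DESeq2 called that one lower.

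Glul (chromosome 1, 153899944 to 153909723), glutamine synthetase, which converts the glutamate that astrocytes take up, showed the largest change of the 38 genes in heavy. It held 2011 and 1717 CPM in vehicle heavy and 495, 463, 468 and 492 CPM in HHT heavy. The HHT libraries lay within a narrow range far below both vehicle libraries, and the change was -1.96 ± 0.14 (edgeR adjusted p = 3.38e-06). In medium Glul held 499 and 539 CPM in vehicle and 581, 679.6, 598 and 769.9 CPM under HHT, 0.34 ± 0.15 (edgeR adjusted p = 0.0764), and in input 751 and 707 and 549, 680.0, 531 and 702 CPM, -0.24 ± 0.15 (edgeR adjusted p = 0.392). Cbs (chromosome 17, 31608894 to 31637238), cystathionine beta-synthase of sulphur amino acid metabolism, moved in both pools in opposite directions. It fell from 45 and 50.1 CPM to 14.8, 11.8, 14.6 and 15 CPM in heavy, -1.76 ± 0.15 (edgeR adjusted p = 3.38e-06), and rose from 11.6 and 14.5 to 24.3, 26.6, 24.3 and 28.4 CPM in medium, 1.00 ± 0.16 (edgeR adjusted p = 0.000348). Sox9 (chromosome 11, 112782224 to 112787760), a transcription factor of astrocyte identity, did the same. Its values were 166 and 145 CPM in vehicle heavy and 96.3, 78.2, 97 and 77.8 CPM in HHT heavy, a change of -0.83 ± 0.14 (edgeR adjusted p = 0.000254). In medium they were 48.6 and 58.9 and 137, 149, 125 and 137 CPM, a rise of 1.36 ± 0.16 (edgeR adjusted p = 9.52e-05), and in input the 2 treatments overlapped at 0.00 ± 0.15.

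Acsbg1, an acyl-CoA synthetase, fell in heavy, at -1.30 ± 0.14 (edgeR adjusted p = 1.08e-05), from 218 and 222 to 85.2, 90.9, 78.1 and 104 CPM. Its medium rise of 0.39 ± 0.15 (edgeR adjusted p = 0.0492) lay close to the threshold and was lost in 7 of 13 alternative fits. Aldh1l1 (chromosome 6, 90486427 to 90600203), a folate enzyme whose promoter is used to label astrocytes, went from 95.8 and 99.9 CPM to 40.7, 38.8, 39 and 56.4 CPM in heavy, -1.17 ± 0.16 (edgeR adjusted p = 4.76e-05). In medium it did not pass, at 0.35 ± 0.17 (edgeR adjusted p = 0.108). Gfap (chromosome 11, 102887336 to 102900912), the intermediate filament of astrocytes, differed from these in falling in both pools. It held 282 and 207 CPM in vehicle medium and 108, 105, 97.8 and 119 CPM in HHT medium, -1.17 ± 0.17 (edgeR adjusted p = 0.000221). In heavy it held 305 and 228 CPM in vehicle and 115, 109, 103 and 125 CPM under HHT, -1.22 ± 0.17 (edgeR adjusted p = 6.2e-05). Input values of 221 and 203 CPM in vehicle and 176, 235, 163 and 263 CPM under HHT overlapped, with replicates 1 below and replicates 2 above the vehicle libraries, at -0.02 ± 0.18 (edgeR adjusted p = 0.985). Ndrg2, a cytosolic protein of the astrocyte cell body and processes, also fell in both pools, at -0.62 ± 0.20 in medium and -1.38 ± 0.20 in heavy.

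The short coding sequences fell in medium instead. Mt1, Mt2 and Mt3 encode the metallothioneins, small metal-binding proteins of 61, 61 and 68 residues. Mt1 held 225 and 193 CPM in vehicle medium and 121, 129.9, 124 and 118 CPM in HHT medium, -0.76 ± 0.17 (edgeR adjusted p = 0.00267). In heavy, where Mt1 was lowest, the values were 79.7 and 64.9 CPM in vehicle and 77.1, 64, 65.2 and 67.8 CPM under HHT, which overlapped at -0.07 ± 0.18 (edgeR adjusted p = 0.773). Mt2 changed by -0.73 ± 0.18 (edgeR adjusted p = 0.00434) and Mt3 by -0.45 ± 0.17 (edgeR adjusted p = 0.0443) in medium, and the Mt3 call was lost in 4 of 13 alternative fits. Mt1 and Mt2 are close paralogues, so their separate estimates are uncertain where reads fit both. S100b, a calcium-binding protein, went from 56.9 and 41.7 to 20.5, 23.2, 23.8 and 27.9 CPM in medium, -1.03 ± 0.20 (edgeR adjusted p = 0.00109), and stood at -0.06 ± 0.23 in heavy. The peroxiredoxin Prdx6 (chromosome 1, 161240112 to 161251219) fell from 225 and 189.6 to 70.4, 84.5, 73.4 and 94 CPM, -1.36 ± 0.19 (edgeR adjusted p = 0.00017), and just missed the threshold in heavy at -0.50 ± 0.20 (edgeR adjusted p = 0.0509). Fabp7, a fatty acid binding protein of radial glia and astrocytes, fell from 14.8 and 15.3 to 6.0, 6.97, 5.32 and 6.89 CPM, -1.25 ± 0.20 (edgeR adjusted p = 0.000376). Hes5, a Notch target and the least abundant of the 38 genes at 1.48 to 3.56 CPM, changed by -0.79 ± 0.22 in medium and stood at 0.52 ± 0.27 (edgeR adjusted p = 0.184) in heavy. No HHT library overlapped vehicle in medium for any of these 7 genes, and over all 14 the HHT libraries lay below vehicle for 2 in input, 9 in medium and 8 in heavy, as they did for 11.3%, 31.5% and 32.9% of all genes.

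In input the 14 cytosolic or nuclear genes had a median change of -0.05 and none passed with edgeR or DESeq2, with 1 at an unadjusted p under 0.05. That count depended on the lysate. With HHT replicates 1 alone, a fit chosen after seeing the data, 6 of them fell in input: Gfap, Glul, Mt1, Mt2, Acsbg1 and Prdx6, with changes of -0.46 to -0.32. The share of all genes that fell in that fit is not given here, so these falls are not read as particular to the 6 genes. With HHT replicates 2 alone none of the 14 fell. The number of membrane and secreted genes that rose in input changed less, with 21 up in the first fit and 18 in the second. The size of the change in single genes could still depend on the lysate. Slc4a4 held 107 and 65.1 CPM in WT HHT input 1 and 2 and 119 and 65.1 CPM in KO, and Slc1a2 differed likewise.

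**Figure D3:**
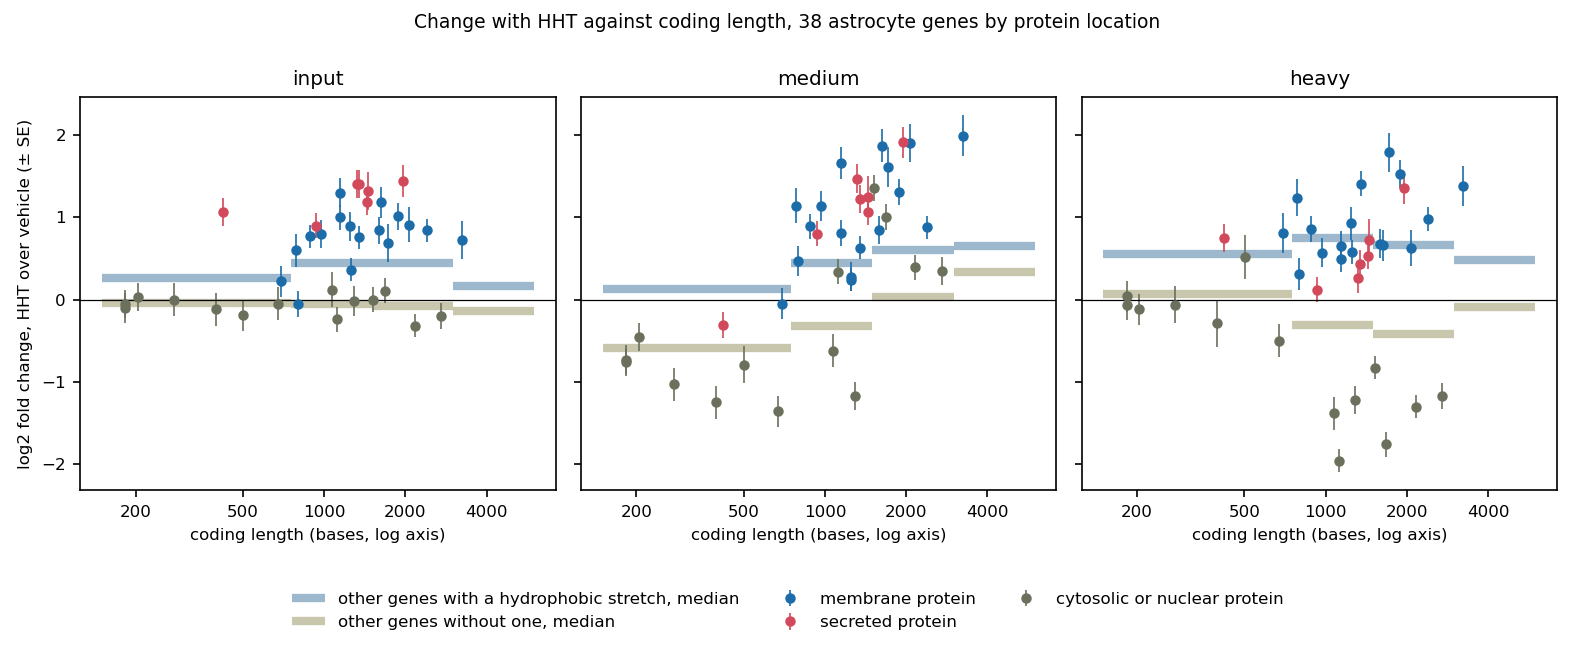
Log2 fold change of HHT over vehicle (± SE) against coding length in bases (log axis) for the 38 genes, by protein location and fraction. Horizontal bars are medians of all other genes of the same length class, blue with a hydrophobic stretch and tan without. The cytosolic or nuclear genes lie near 0 in input, below 0 at short lengths in medium, and below 0 at longer lengths in heavy.

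Genes outside the list gave the setting for these values. Of 5147 other genes with a hydrophobic stretch, 30.9% rose in input, 47.6% in medium and 51.5% in heavy, with medians of 0.36, 0.48 and 0.64. The 24 membrane and secreted astrocyte genes rose in 75.0%, 83.3% and 87.5%, with medians of 0.90, 1.10 and 0.70. Of 7853 other genes without a stretch, 0.407% rose in input, and in the polysomes 30.9% fell in medium and 35.1% in heavy. Of those without a stretch and under 750 coding bases, 59.2% fell in medium and 9.81% in heavy. From 750 to under 1500 bases 40.3% and 40.9% fell, and from 1500 to under 3000 bases 12.5% fell in medium and 50.6% in heavy. In that last length class 16.7% of the other genes rose in medium, with a median of 0.03, whereas 3 of 4 astrocyte genes rose. Most of those other genes thus passed in neither direction in medium, though more of them rose than fell. The called astrocyte genes, these 3 included, went in the direction called more often among genes of the same protein location and length. The excess of the 24 over other such genes was not tested.

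Ratios between fractions in vehicle use the same vehicle libraries as HHT against vehicle, so they are no separate evidence for the division by length. That division was made after the data were seen, and it is used here to describe the ratios in vehicle slices. There 6 of the 7 longer cytosolic or nuclear genes were higher in heavy than in input, from 0.62 for Ndrg2 to 1.35 for Glul, and Gfap at 0.32 ± 0.21 (edgeR adjusted p = 0.229) did not pass. Of the 7 shorter ones 6 were lower, from -0.85 for Hes5 to -1.46 for Mt1 and Mt2. Among all 38 genes 7 were higher and 14 lower, against 24.8% and 21.7% of all genes. The membrane and secreted genes supplied 1 of the higher ones, Fgfr3, and 8 of the lower ones, of which Cst3 at -1.36 ± 0.20 (edgeR adjusted p = 0.00013) lay lowest. Heavy over medium in vehicle was highest for Acsbg1, at 2.06 ± 0.17 (edgeR adjusted p = 1.96e-06), and lowest for Fabp7, at -1.78 ± 0.28 (edgeR adjusted p = 0.000128). It was higher for 8 and lower for 13 of the 38, against 25.9% and 28.1% of all genes. Medium over input in vehicle was higher for 1 gene and lower for 5, against 10.2% and 9.5% of all genes, and for 3 and 8 in a fit with the lysate as a block.

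HHT moved these ratios. Heavy over medium shifted by -2.76 ± 0.22 (edgeR adjusted p = 9.42e-06) for Cbs, -2.30 ± 0.21 (edgeR adjusted p = 1.21e-05) for Glul and -2.19 ± 0.21 (edgeR adjusted p = 1.46e-05) for Sox9. Of the 38 genes 9 shifted up and 11 down, against 18.1% and 18.4% of all genes, and the longer cytosolic or nuclear genes gave 5 of the 11 and the shorter ones 6 of the 9. The membrane genes split, with Slc1a3 (-1.21), Slc39a12 (-1.26) and Gja1 (-1.01) shifting down and Ttyh1 (0.78) and Cldn10 (0.86) shifting up. Heavy over input shifted up for Slc1a2, by 1.10 ± 0.31 (edgeR adjusted p = 0.0188), and for Ttyh1, by 0.65 ± 0.19 (edgeR adjusted p = 0.0218). It shifted down for 11 genes, all 7 longer cytosolic or nuclear ones and the secreted Clu, Apoe, Pla2g7 and Htra1, against 12.6% up and 16.3% down among all genes. With the lysate as a block 4 genes shifted up. Medium over input shifted up for 5 genes and down for 5, against 7.09% and 10.2% of all genes, with 10 up when the lysate was a block. These shifts and the HHT against vehicle values share their libraries.

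**Figure D4:**
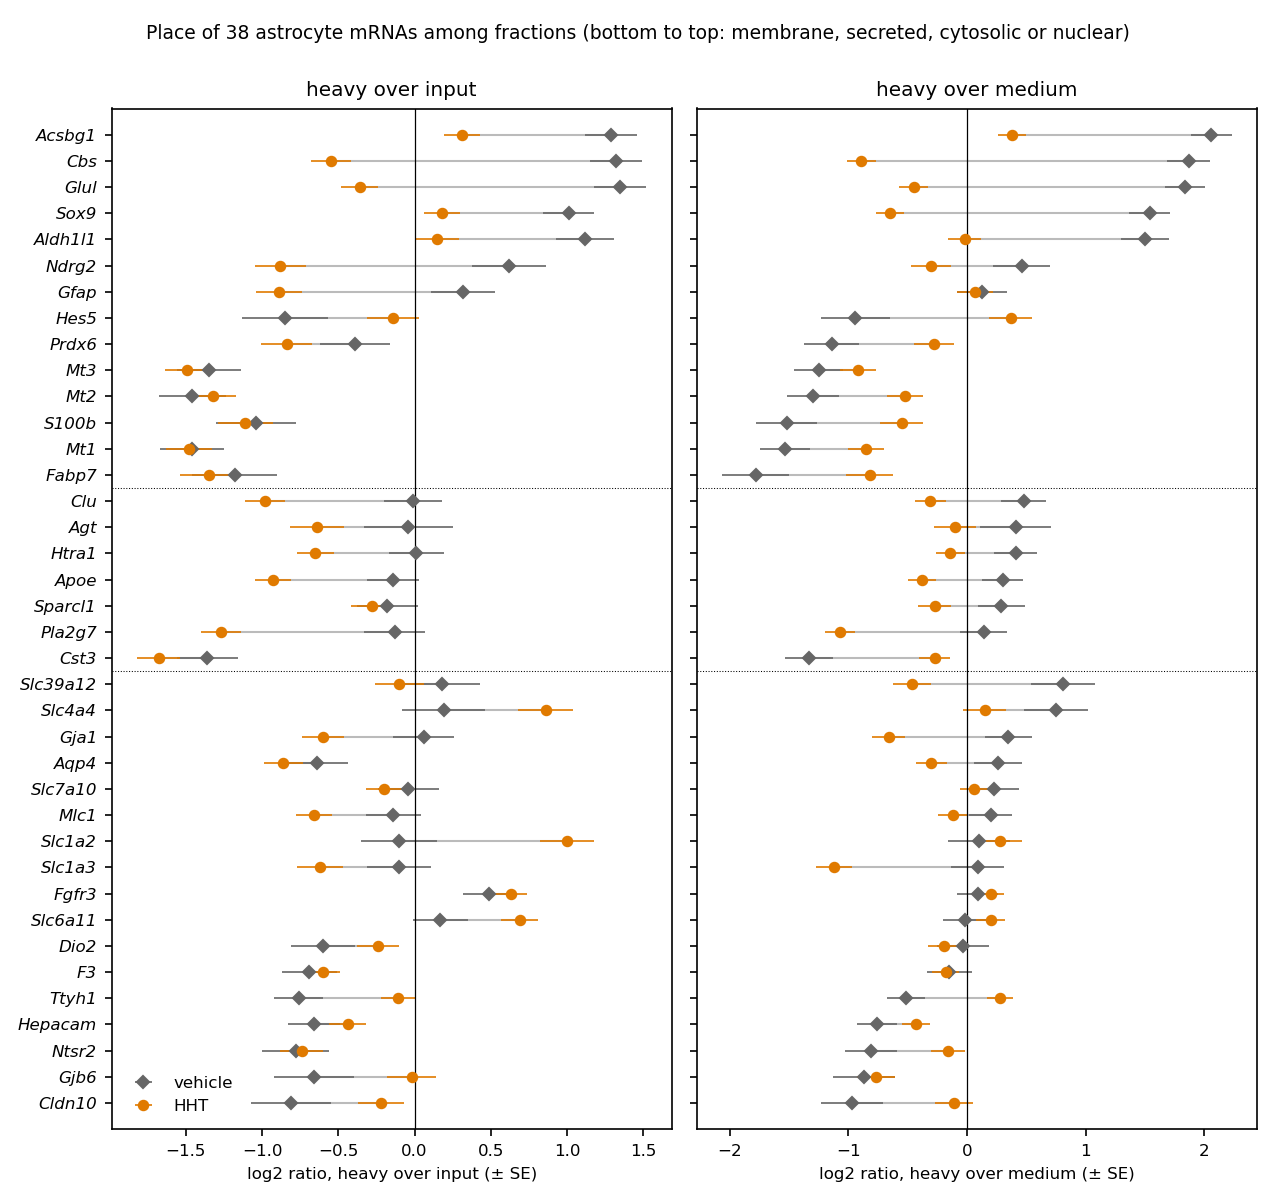
Log2 ratio (± SE) of heavy over input and of heavy over medium for the 38 genes, in vehicle (grey diamonds) and HHT (orange circles), joined by a line per gene and grouped by protein location. In vehicle the longer cytosolic or nuclear genes at the top reach 1.35 over input and 2.06 over medium, and under HHT Glul and Cbs lie below 0 in both panels.

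Under HHT alone the 38 genes were spread over the gradient in another order. Heavy over input was then higher for 5 genes and lower for 23, against 27.6% and 30.4% of all genes. The 5 were Slc1a2 at 1.00 ± 0.18 (edgeR adjusted p = 0.000411), Slc4a4 at 0.86 ± 0.18, Slc6a11 at 0.69 ± 0.12, Fgfr3 at 0.63 ± 0.11 and Acsbg1 at 0.31 ± 0.12. The lowest was Cst3, at -1.68 ± 0.14 (edgeR adjusted p = 2.11e-06). Medium over input was higher for 8 and lower for 19, against 13.4% and 17% of all genes, led by Sox9 at 0.83 ± 0.12 and Cst3 at -1.41 ± 0.13. Without KO replicate 2 those counts were 2 and 4, and without WT replicate 2 they were 5 and 4. Heavy over medium was higher only for Acsbg1, at 0.38 ± 0.12 (edgeR adjusted p = 0.0242), and lower for 15 genes, against 19% and 16.8% of all genes. Slc1a3 at -1.12 ± 0.15 (edgeR adjusted p = 0.000102) lay lowest there.

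The order of levels per length, on the deposited rescaled TPM scale, changed with treatment too. Mt1 was the highest of the 38 genes in vehicle input, at 1167 in WT and 1076 in KO, and in vehicle medium, at 1124 and 999. Glul was highest in vehicle heavy, at 1813 in WT and 1576 in KO. Under HHT the secreted genes led. Cst3 was highest in all 4 HHT input libraries, at 1254 to 1599, and Sparcl1 in 3 of 4 medium and 3 of 4 heavy libraries, with Apoe in KO medium 2 and Slc1a2 in KO heavy 2. The lowest gene was Hes5 in 16 of the 18 libraries and Dio2 in the 2 vehicle medium libraries. Neighbours in this order need not differ beyond the spread between replicates. Clu and Sparcl1, for example, held 1115 and 1081 in WT HHT input 1, and 1067 and 864.5 in WT HHT input 2.

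**Figure D5:**
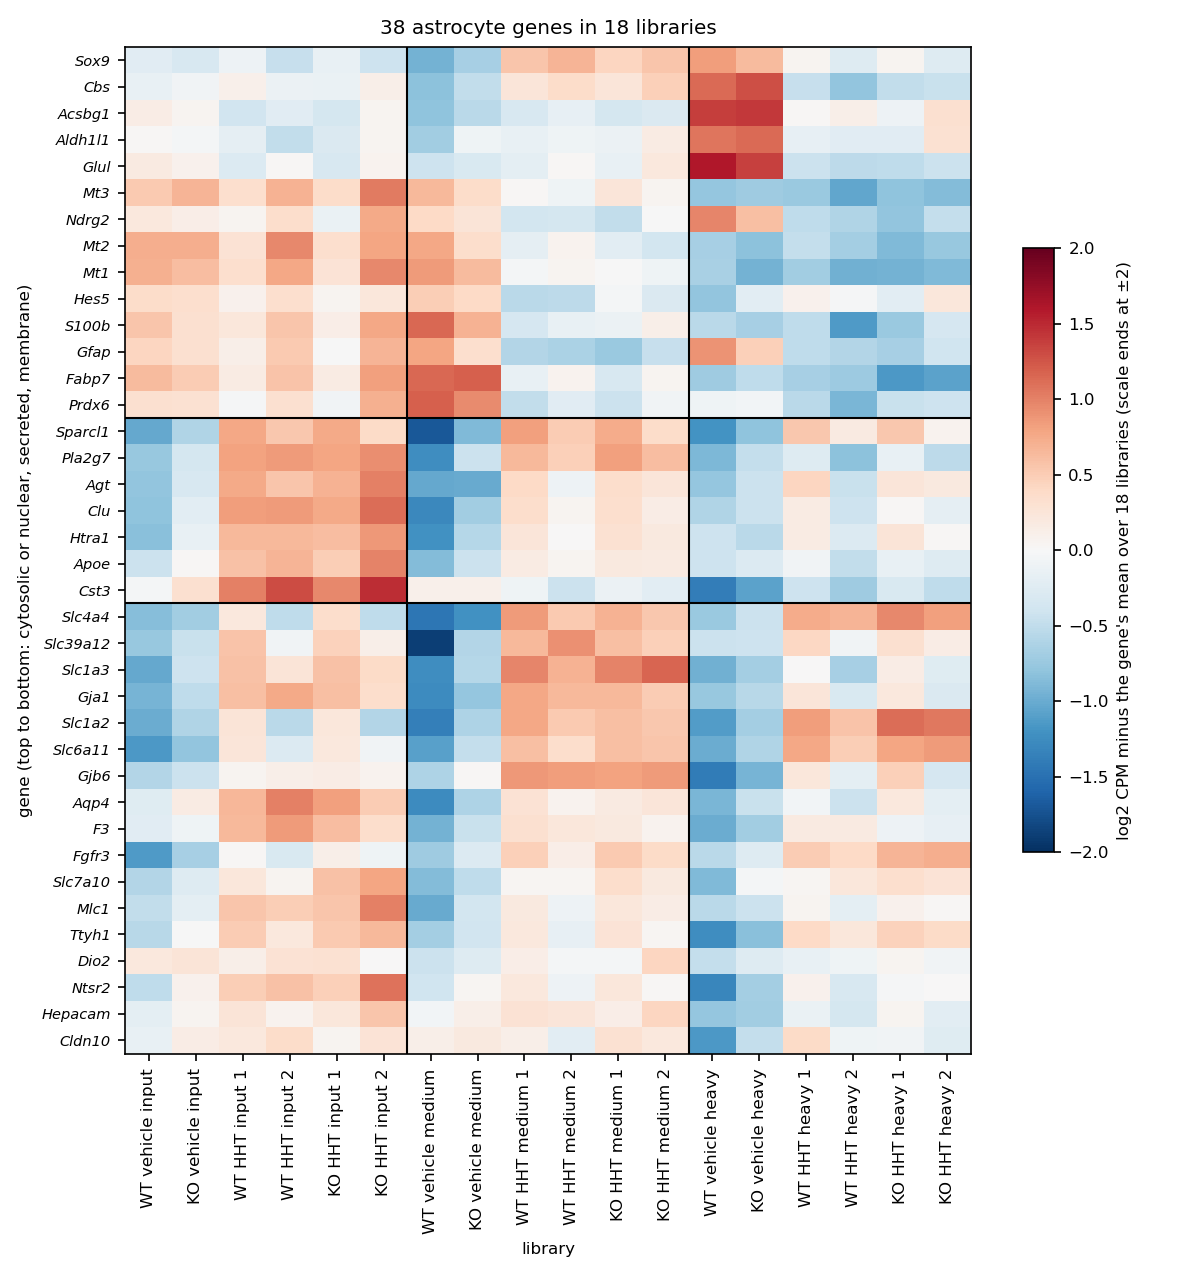
Log2 CPM of each of the 38 genes in each of the 18 libraries, as the difference from the mean of the gene over all libraries, with the colour scale ending at 2 in either direction. Within the vehicle heavy column pair the longer cytosolic or nuclear genes are the highest, and most membrane and secreted genes are lower in the 6 vehicle libraries than under HHT, less so in KO than in WT.

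KO against WT under HHT asks whether these mRNAs depend on FMRP. None of the 38 genes passed in any fraction with edgeR or DESeq2, and edgeR called 0% of all genes in either direction in each fraction. An unadjusted p under 0.05 was found in input for 679 genes, in medium for 387 and in heavy for 412, and of the 38 only Slc7a10 in input, at 0.54 ± 0.17 (edgeR adjusted p = 0.89). DESeq2 called 4, 2 and 1 of all genes. Median differences of the 38 were 0.08, 0.09 and 0.10 in the 3 fractions. The design has 2 libraries a side, and Fmr1 itself did not pass the edgeR test in any fraction. The response to HHT was also compared between genotypes. The test of that difference called none of the 38 genes and 0% of all genes in each fraction. At an unadjusted p under 0.05 there were 214, 187 and 104 of all genes, and of the 38 only Slc39a12 and Sparcl1 in medium, at -1.54 ± 0.45 (edgeR adjusted p = 0.999) and -0.94 ± 0.35 (edgeR adjusted p = 0.999). DESeq2 called none.

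In vehicle slices each genotype has 1 library a fraction, so their difference has no test. All 17 membrane genes were higher in KO than in WT in each of the 3 fractions, with median log2 differences of 0.31 in input, 0.49 in medium and 0.31 in heavy, where the median of all genes was 0.01, 0.01 and 0.03. Slc1a2 held 642 and 843 CPM in input and 493 and 829 CPM in medium. The 7 secreted genes were higher in KO for 7, 6 and 6 of 7, while the cytosolic or nuclear genes had medians of -0.09, -0.10 and -0.05. The 3 fractions of a genotype share 1 lysate here, so genotype and lysate cannot be told apart, and HHT against vehicle uses these same vehicle libraries. With each genotype taken alone, HHT against vehicle called 16 of the 38 genes higher in WT input and 0 in KO input, where 952 and 0 of all genes were called. In KO input the change was above 0 for 32 of the 38, as it was for 7221 of the 13973 genes. The median change of the 38 was 0.74 in WT and 0.52 in KO, where that of all genes was 0.00 and 0.01. The KO vehicle input library lay above the WT one for 26 of the 38 and for 7407 of the 13973 genes.

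Other gene lists moved in the same libraries. Among 55 further astrocyte genes 23 rose in input and 0 fell, 33 rose and 4 fell in medium, and 20 rose and 9 fell in heavy. Among 30 genes of reactive astrocytes the counts were 15 and 0, 15 and 3, and 10 and 6. Genes of other glia and of vessels also rose in input, with 7 of 10 for microglia, 8 of 12 for vessels and 6 of 12 for oligodendrocytes. For ependyma and choroid plexus 3 of 7 rose. For neurons 2 of 14 rose, which at 14.3% lay near the share of all genes. None of these genes fell in input. Of all genes 12.2% rose in input, 25.4% rose and 21.5% fell in medium, and 27.1% rose and 24.7% fell in heavy. Several polysome counts also lay near these shares and are not read as results about their lists. Among them were the rises of microglia genes (30%) and falls of oligodendrocyte genes (25%) in medium. In heavy they included the rises of vessel (25%) and of ependyma and choroid plexus genes (28.6%). Reactive astrocyte genes there, at 33.3% up and 20% down, were close as well. In medium 3 rose and 1 fell for microglia, 7 and 1 for vessels, 8 and 3 for oligodendrocytes, 3 and 2 for ependyma and choroid plexus, and 7 and 2 for neurons. In heavy the counts were 0 and 0 for microglia, where 0 had an unadjusted p under 0.05, 3 and 1 for vessels, 8 and 2 for oligodendrocytes, 2 and 1 for ependyma and choroid plexus, and 2 and 10 for neurons. Summed over each list, microglia genes held 87.9 to 126 CPM in vehicle input and 188 to 227 CPM in HHT input. Vessel genes held 38.5 to 44.8 CPM in vehicle and 94.3 to 110 CPM in HHT, oligodendrocyte genes 3548 to 3805 and 4272 to 4996, ependyma and choroid plexus genes 111 to 161 and 206 to 322, and neuron genes 12444 to 12959 and 13147 to 14251. The 38 astrocyte genes held 4324 to 5054 and 6896 to 7518. No measured gene of these lists was at 0 in any library, and the part of cell composition in the astrocyte values was not tested. In input the 14 cytosolic or nuclear astrocyte genes held 1890 to 1985 CPM in vehicle and 1501 to 2185 CPM in HHT, which overlapped.

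With total counts in place of TMM, the median change of all genes moved by -0.11 in input and -0.11 in medium, and the share of called genes that were higher in input went from 98.3% to 85.8%. The 18 input rises among the 38 genes numbered 18 under that scaling too.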

How the data were processed

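RNA of 18 libraries was measured in the groups described above. Tools named for the series are RSEM 1.2.11, Bowtie2 2.1.0, Trimmomatic 0.32 and DESeq2 1.16.1, on mm10, per the submitters' processing notes, which give no roles. The authors' first deposited table holds estimated counts (expected counts) of 13973 genes, and 0 of its 251514 values come out whole within 1e-06. The authors' second deposited table, which they call TPM, is used as a score (rescaled TPM), since 10 of 18 columns sum to more than TPM can. The name of both tables mentions 2 batches. Which libraries form them, whether values were adjusted for them and how genes were chosen are not given in the sources used here. An adjustment would make replicates look closer than they were. No column was left without a sample.

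After rounding, counts were modelled in edgeR 4.0.16 (R 4.3.3, TMM, quasi-likelihood F-test, 12 group means over 18 libraries, 6 residual degrees of freedom, prior of 7.36), with Benjamini-Hochberg adjustment over all genes in each of 18 comparisons at 0.05, two-sided. The code for HHT against vehicle in input was tested on simulated data. No gene was removed by edgeR's low-count filter. Vehicle groups of 1 library are assumed to vary like the HHT groups. Replicates are pools of slices, and a p-value rests on the spread between the 2 HHT pools of a group, not between vehicle pools. The 6 residual degrees of freedom come from the 6 HHT groups, whose fractions share lysates but were fitted as separate.

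Input, medium and heavy of a replicate number share a lysate, per the labels' protocols, and a lysate block is an alternative. Deviations of shared lysates correlated over genes at 0.0142 to 0.349. Equal numbers in KO and WT, which are not stated to share a preparation, correlated at 0.323 in input, 0.165 in medium and 0.00332 in heavy. Other alternatives were RLE factors, total counts, no filter, a mean of at least 5 CPM, DESeq2 1.42.0, limma 3.58.1 on log2(rescaled TPM + 1), each HHT lysate left out, each fraction fitted alone, each genotype alone and, added after seeing the data, each HHT replicate number alone.

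Coding sequences, the longest of an APPRIS principal transcript, and positions came from GENCODE M21 and were translated with Biopython 1.88. The 38 genes, their classes and the other lists were chosen with earlier results of these data known. All 38 are accounted for by class. Values in every library are given among the genes with the smallest adjusted p of HHT against vehicle in each class and for Gfap, Slc1a2, Glul and Mt1, and a few others are given where a result turns on them.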

Additional observations from a re-analysis of the deposited data

How the results depend on the processing

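Of 8646 values of single genes under the alternatives, 311 lost their call and 207 gained one. The sign changed in 0 of the values called in either fit and in 418 values that passed in neither. Of the calls of HHT against vehicle, 17 of 18 in input, 27 of 32 in medium and 18 of 28 in heavy were made in all 13 alternatives that keep both genotypes. The calls lost in some were Slc39a12 in input, Dio2, Ndrg2, Mt3, Acsbg1 and Hes5 in medium, and the rises of Slc1a3, Slc7a10, Slc39a12, Aqp4, Gja1, Mlc1, Cldn10, Clu, Agt and Htra1 in heavy. Leaving out 1 HHT lysate at a time gave 17 to 21 rises in input, 21 to 24 rises and 7 to 9 falls in medium, and 15 to 21 rises and 7 to 8 falls in heavy.

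With either genotype alone, fewer of the 38 genes and fewer of all genes were called in each fraction. The median change of the 38 with KO alone was 0.52 in input, 0.56 in medium and 0.35 in heavy. With WT alone it was 0.74, 0.94 and 0.52. Over all genes the medians were 0.01, 0.01 and 0.03 with KO alone and 0.00, 0.04 and 0.06 with WT alone. These fits compare 2 HHT libraries with 1. With HHT replicates 1 only, 6 genes fell in input, medium over input was higher for 4 and lower for 7 under HHT and for 4 and 12 in vehicle, and 4 genes shifted up in heavy over input. With replicates 2 only, heavy over medium under HHT was higher for 2, medium over input in vehicle was higher for 3 and lower for 9, and the shifts were 8 up and 10 down in medium over input and 4 up and 17 down in heavy over input. Total counts gave 0 higher and 24 lower for heavy over medium under HHT, 0 higher for medium over input in vehicle and 5 higher for heavy over medium in vehicle. RLE gave 3 lower for medium over input in vehicle and 5 up for the shift of heavy over medium, where DESeq2 also gave 5, and DESeq2 gave 8 up for the shift of medium over input. With limma, medium over input in vehicle was higher for 0 and lower for 11, and 9 and 8 genes shifted up in medium and heavy over input. With the lysate as a replicate block, heavy over medium under HHT was higher for 2, medium over input in vehicle was higher for 3 and lower for 8, and 10 and 4 genes shifted up in medium and heavy over input. The block moved no other count of calls by over 1.5 times.

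Leaving out 1 HHT lysate at a time gave 2 to 8 higher and 4 to 15 lower for medium over input under HHT, 0 to 1 and 8 to 15 for heavy over medium under HHT, and 3 to 3 lower for medium over input in vehicle. It gave 2 to 5 up and 3 to 7 down for the shift of medium over input, 1 to 3 up for that of heavy over input and 3 to 8 up for that of heavy over medium. The lowest counts for medium over input under HHT came without KO replicate 2 or WT replicate 2. The cause was not tested. Groups of 2 HHT libraries and 1 vehicle library limit the precision, and how much depth adds to that was not tested. In every library 37 of the 38 genes were above 2 CPM.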
